A study of Mus musculus with 33 samples.

Results

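The genes described here are the 45 listed components of the DNA replication machinery and of the enzymes that supply its nucleotides, followed in single cells of the mouse heart. They were chosen by symbol, with earlier results of these data known, and all 45 were found among the 14862 gene rows of the count table. They fall into 9 sets by role: the origin recognition complex (ORC, 6 genes), the MCM helicase ring (6), Cdc45 with the GINS complex and Mcm10 (6), the DNA polymerases and primase (9), Pcna and its loader RFC (6), the single-strand binding complex RPA (3), Okazaki fragment joining (2), fork protection (3) and the nucleotide enzymes (4). The study sorted ventricular cells from transgenic mice carrying mAG-hGem, an azami green fluorescent geminin fragment that belongs to the FUCCI cell cycle reporter. Each sample is 1 cell, and the 4 groups are 10 mAG-hGem positive and 11 mAG-hGem negative cells from embryos at day 14.5 (E14.5), and 6 positive and 6 negative cells from mice at postnatal day 5 (P5). All groups carry the reporter. The labels call every cell a single cardiomyocyte, accepted after PCR for the troponin gene Tnnt2, and they name no animal and no litter, so each group counts as 1 sample and no difference between groups was tested.

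Replication starts where ORC, with its partners Cdc6 and Cdt1, loads rings of Mcm2 to Mcm7 onto DNA in G1. In S phase Cdc45 and GINS join the rings to make the active helicase, primase and polymerase alpha lay down primers, polymerases delta and epsilon extend them on the Pcna clamp, and ribonucleotide reductase, thymidylate synthase and thymidine kinase provide deoxynucleotides. Geminin blocks a further round of loading by binding Cdt1, and the reporter accumulates from S phase until mitosis. Mouse heart muscle cells divide in the embryo and largely leave the cell cycle in the days after birth.

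Many replication genes are known targets of E2F transcription factors. RefSeq promoter windows on build GRCm38.p6, from 250 bases before to 50 after the start of transcription, were matched for 37 of the 45 genes, and Mcm4, Gins1, Gins2, Gins4, Rfc2, Prim2, Pole and Tipin had no entry in the table. The E2F motif was searched on both strands as TTTCCCGC, TTTCGCGC, TTTGCCGC and TTTGGCGC. It was present for 14 of 37 genes (37.8%), for 11 of 48 genes of a second replication list (22.9%), and for 704 of 27025 genes overall (2.60%). The 4 genes whose windows are printed carry a motif in the last 200 bases before or the first 30 after the start, and their RNA levels are given below. Mcm5, Mcm6 and Mcm7 encode parts of the helicase ring and Gins3 a subunit of GINS. Capitals mark the E2F motifs, overlapping ones run together, and each window reads 5′ to 3′ on the strand of its gene. They lie at chr8:75109309-75109538 (+), chr1:128359676-128359905 (-), chr5:138171854-138172083 (-) and chr8:95633359-95633588 (+).
Mcm5: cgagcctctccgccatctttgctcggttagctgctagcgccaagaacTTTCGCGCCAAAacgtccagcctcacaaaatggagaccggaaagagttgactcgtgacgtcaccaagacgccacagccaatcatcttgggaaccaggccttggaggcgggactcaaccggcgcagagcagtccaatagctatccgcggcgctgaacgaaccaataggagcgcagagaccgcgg
Mcm6: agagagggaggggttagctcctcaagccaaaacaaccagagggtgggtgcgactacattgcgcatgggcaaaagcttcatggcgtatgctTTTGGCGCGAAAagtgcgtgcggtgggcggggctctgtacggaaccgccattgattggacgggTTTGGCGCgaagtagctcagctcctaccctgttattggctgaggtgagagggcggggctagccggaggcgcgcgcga
Mcm7: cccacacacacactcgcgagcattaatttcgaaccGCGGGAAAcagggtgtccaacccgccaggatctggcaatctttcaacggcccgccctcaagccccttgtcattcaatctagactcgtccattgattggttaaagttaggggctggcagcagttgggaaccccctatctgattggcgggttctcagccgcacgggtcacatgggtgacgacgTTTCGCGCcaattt
Gins3: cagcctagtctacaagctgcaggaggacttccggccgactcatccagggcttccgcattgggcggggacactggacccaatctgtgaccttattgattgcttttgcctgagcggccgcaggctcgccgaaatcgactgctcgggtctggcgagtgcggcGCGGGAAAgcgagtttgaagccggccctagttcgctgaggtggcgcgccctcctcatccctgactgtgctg

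The printed Mcm6 window holds 3 E2F motifs, those of Mcm5 and Mcm7 hold 2 each, and that of Gins3 holds 1. Another Mcm7 window, at chr5:138171217-138171516 (-), holds no E2F motif. By set, the motif was found for 4 of 5 MCM ring genes with an entry (Mcm3, Mcm5, Mcm6 and Mcm7), for 4 of 7 polymerase and primase genes (Pola1, Pold1, Pold3 and Pole2) and for 2 of 6 ORC genes (Orc1 and Orc3). Rfc3, Lig1, Clspn and Gins3 each had 1 or more. None of the 4 nucleotide enzymes and none of the 3 RPA genes had these letters in its window. Of the 20 motifs found, 14 lay within 100 bases of the start. Promoters of mitotic genes are known for another pair of elements, CCAAT and the cell cycle homology region TTTGAA, and these were searched in the same way on both strands. TTTGAA was in 5 of 37 replication genes (13.5%), 12 of 17 listed G2/M genes (70.6%) and 20.2% of all genes. CCAAT was in 24 of 37 replication genes (64.9%), in 15 of 17 G2/M genes (88.2%) and in 41.1% of all genes. A motif here is a string of letters, not a measured binding site.

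**Figure D1:**
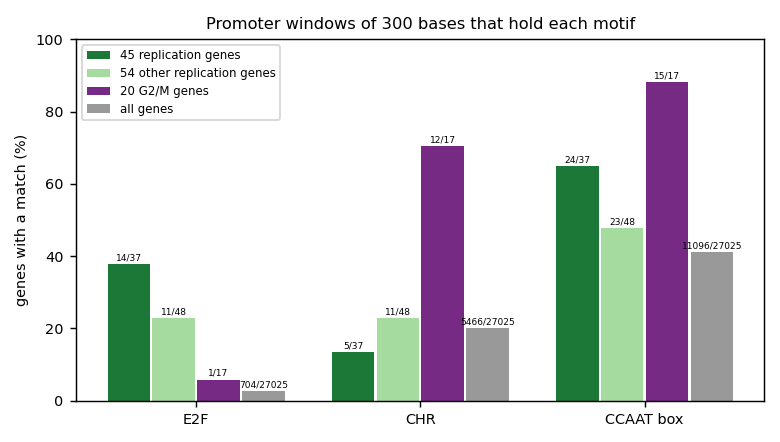
Percent of genes whose promoter window holds each motif (bars, from 0), for the 45 replication genes (37 with a window), 54 other replication genes (48), 20 G2/M genes (17) and all 27025 genes. The E2F bar is highest for the replication genes (37.8%) and the CHR bar for the G2/M genes (70.6%).

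Values are read counts per 1000000 counts of a cell (CPM), and group values divide the summed counts of a group by its summed total. Totals per cell ran from 2545036 to 38465225 counts, and 2994 to 10769 genes had a count. Summed over 12 cardiomyocyte markers, every E14.5 cell had at least 13579.9 CPM, but N10 (negative) also had 46252 CPM of 8 fibroblast and mural markers. At P5 the positive cell L2P12 had 93.2 CPM of cardiomyocyte markers and 15426 CPM of 7 endothelial markers. The 6 P5 negative cells had 0.622 to 3287 CPM of cardiomyocyte markers, with 10238 CPM or more of endothelial markers in 5 of them and 19402 CPM of fibroblast and mural markers in L2N12, against their label. Summed over 20 G2/M genes, positive cells had 874 to 10915 CPM at E14.5, and at P5 5 of 6 had 8192 CPM or more while L2P10 had 27.4 CPM. Among embryonic negative cells the G2/M sum was 0.119 to 2180.0 CPM, and the highest, in N24, lay within the range of the positive cells. For these reasons values without single cells are given beside the results they move most. The part of cell type, depth or single cells in any difference was not tested.

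Replication genes were present in every group, and single cells differed more than groups did. The number of the 45 genes at 10 CPM or more per cell was 14, 32 and 39 (lowest, median and highest) in embryonic positive, 6, 15 and 37 in embryonic negative, 6, 17.5 and 33 in P5 positive and 6, 17 and 34 in P5 negative cells. After thinning every cell to 1 depth, which left out 6 shallow cells, these numbers were 14, 32 and 39 in 9 embryonic positive cells and 9, 15 and 38 in 9 embryonic negative cells. At P5 they were 6, 19 and 33 in 5 positive cells, and 13, 22 and 34 in 4 negative cells. The median embryonic positive cell thus had over 10 CPM of most of the machinery, and the medians of the other groups were 15 to 22 genes, thinned or not. The groups overlapped, since the embryonic negative cells N8 and N24 had 37 genes each at this level and the positive cell G5 had 14. The number of genes at this level went with the number of all genes detected in a cell (Pearson r = 0.77 over the 21 E14.5 cells, 0.74 over the 10 positive and 0.71 over the 11 negative cells). Both counts in a cell come from 1 library, so this is a description.

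**Figure D2:**
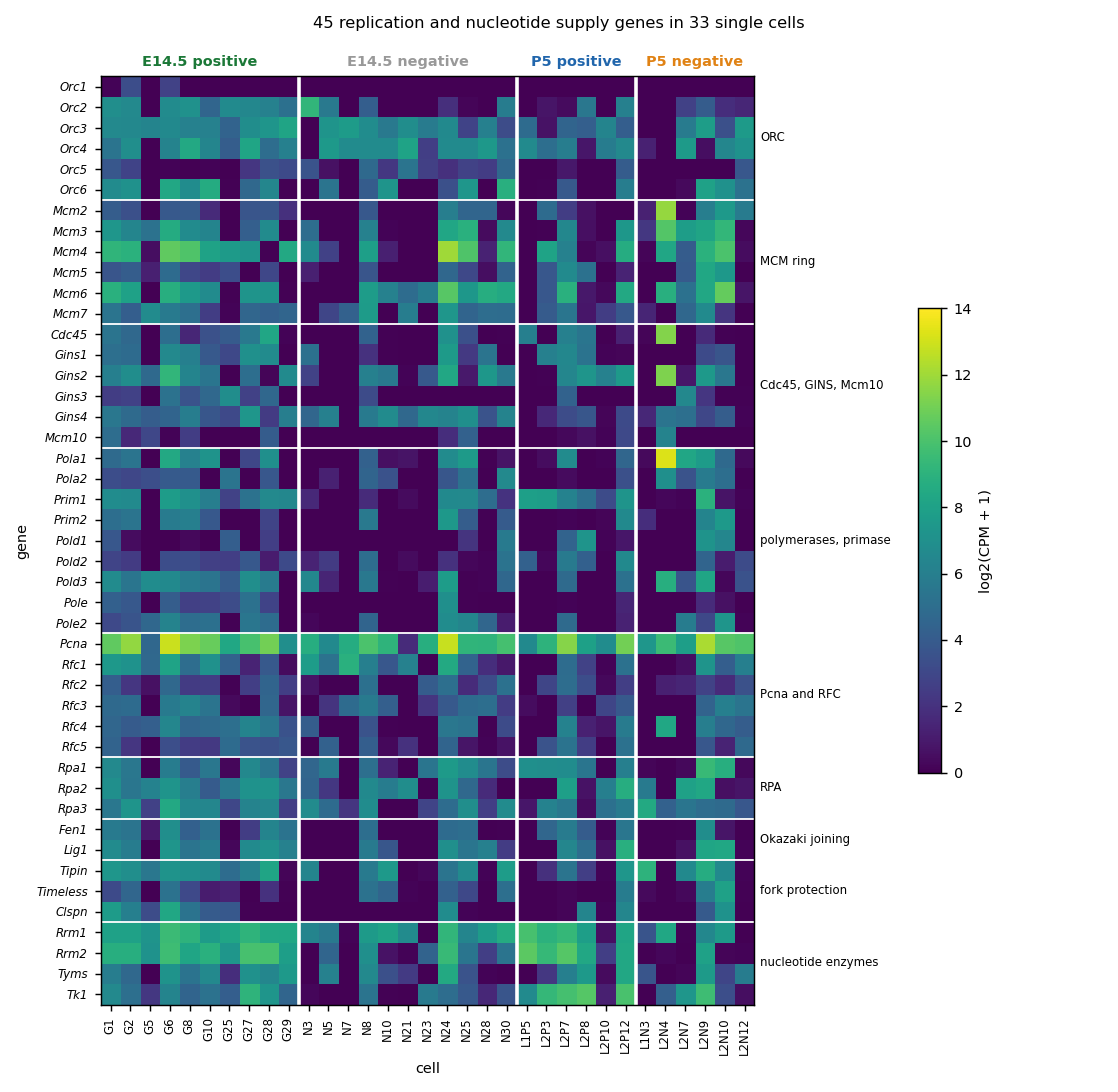
Heat map of log2(CPM + 1) of the 45 replication genes (rows, grouped by role) in the 33 cells (columns, grouped by age and reporter). Embryonic positive cells hold 14 to 39 genes at 10 CPM or more, and single cells of other groups, such as N24 and L2N9, are filled across most roles.

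Summed over the 45 genes, embryonic positive cells had 915, 5460.3 and 15885 CPM (lowest, median and highest) and embryonic negative cells 807, 1863 and 17875 CPM. The lowest positive cell was G5 and the highest G6, and the highest negative cell, N24, was above them all. Pcna alone gave 31.5% of the summed counts of these genes in the positive and 33.4% in the negative group. N24 held 53.6% of the embryonic negative counts of the 45 genes with 11.9% of all counts of that group, and over 50% of the counts of 13 of the 44 genes with any. In P5 positive cells the sum was 447, 3229.5 and 7954 CPM, with L2P10 lowest, and in P5 negative cells 1143, 4613 and 22652 CPM, with L2N4 highest. L2P12 held 40.4% of the P5 positive counts of these genes with 24.4% of the group's total.

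The first comparison sets embryonic positive against embryonic negative cells, that is, cells sorted for the reporter of S phase to mitosis against cells without it at the same age. A gene was called higher or lower when its group value, with 0.5 count added on each side, differed over 2-fold, and the ratios printed for single genes carry no such count. Of the 45 genes, 14 (31.1%) were over 2-fold higher in positive cells, against 22.4% of the 12633 genes with at least 10 counts, and 3 (6.67%) were over 2-fold lower, against 28.96% of all. The other 28 lay within 2-fold. The 14 were Orc1, Orc2, Cdc45, Gins3, Rfc4, Rfc5, Prim1, Pold3, Rpa2, Fen1, Lig1, Clspn, Rrm2 and Tk1, with members of 8 of the 9 sets but none of the MCM ring, and the 3 were Mcm6, Orc5 and Timeless. The median log2 ratio of the 45 genes was 0.30 and that of all genes -0.16. For comparison, all 20 G2/M genes, a list chosen with earlier results of these data known, were over 2-fold higher, with a median of 5.04. Without N24 the median of the 45 genes was 0.90, with 20 higher and 1 lower, while that of all genes was -0.14, with 24.02% higher and 28.3% lower. Without N10, the negative cell with fibroblast and mural markers, 15 genes were higher and 4 lower, next to 14 and 3 with all cells. The share of all genes without N10 is not given here, and with all cells it was 22.4% and 28.96%. Leaving out each cell in turn, 8 of the 14 stayed over 2-fold higher throughout, namely Orc1, Orc2, Gins3, Rfc4, Prim1, Fen1, Rrm2 and Tk1. The other 6 and all 3 lower genes lost the call without at least 1 cell, and 8 of the 28 others stayed within 2-fold throughout.

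Cells of E14.5 carry title numbers from 1 to 10 or from 21 to 30, a range that the labels do not call a batch. Within numbers 1 to 10 the median of the 45 genes was 1.71, with 28 higher and 1 lower, and that of all genes was 0.02, with 30.6% higher and 25.5% lower. Within numbers 21 to 30, which include N24, it was -0.12, with 11 higher and 13 lower of 44, and that of all genes was -0.31, with 23.01% higher and 36.6% lower. The sign of the median therefore differed between the ranges, while in both it lay above that of all genes.

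The second comparison sets P5 positive against embryonic positive cells, the same reporter state at both ages. Here 5 of the 45 genes (11.1%) were over 2-fold higher at P5, against 30.3% of the 12262 genes with at least 10 counts, and 20 (44.4%) were over 2-fold lower, against 40.9% of all, a share near the background. The 5 were Mcm5, Pold1, Pold2, Timeless and Tk1. The median log2 ratio was -0.64, against -0.39 for all genes and 0.01 for the G2/M genes. TMM and DESeq2 size factors shift every ratio by the same amount, and placed the median of all genes at -0.23 and -0.0023. Without L2P12, the cell with endothelial markers, the median was -1.503 with 4 genes higher and 27 lower, against -0.93 for all genes with 48.99% lower. Without L2P10 the median was -0.43 with 6 higher and 17 lower, against -0.37 for all genes with 30.7% higher and 40.8% lower. When each cell was left out in turn, Mcm5, Pold2 and Tk1 stayed over 2-fold higher, and 13 of the 20 stayed over 2-fold lower. The 7 that did not were Mcm4, Mcm7, Orc4, Cdc45, Mcm10, Rpa3 and Tipin.

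**Figure D3:**
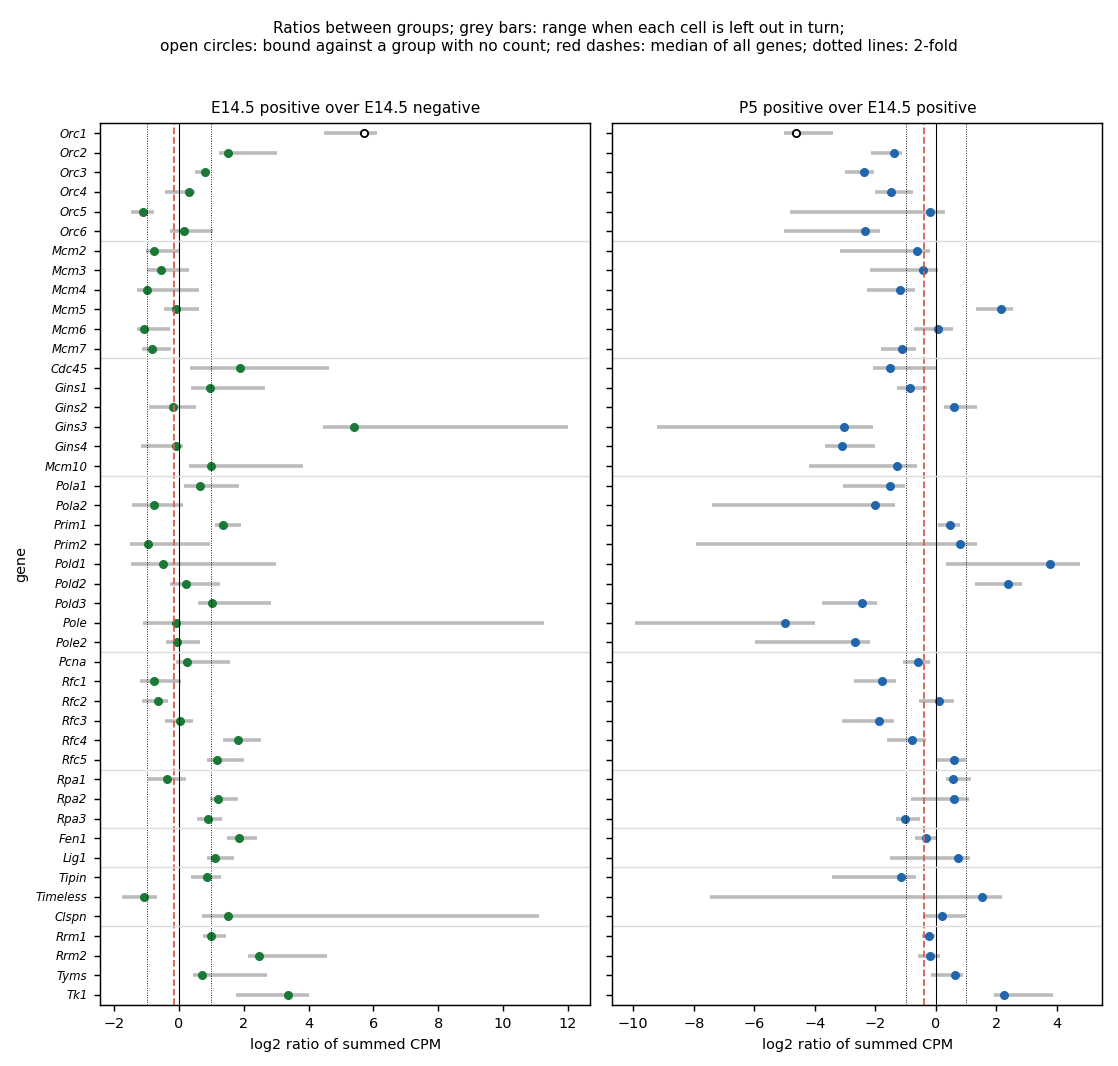
Log2 ratios of the 45 genes (points) in embryonic positive over embryonic negative cells (left) and P5 positive over embryonic positive cells (right); grey bars span the ratios when each cell is left out in turn, open circles are bounds against a group with no count, red dashes mark the median of all genes and dotted lines 2-fold. At left 14 points lie beyond 2-fold on the higher side, and at right 5 of the 6 ORC genes lie beyond 2-fold on the lower side.

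ORC marks origins before the helicase is loaded. Orc1, its largest subunit and the one whose protein is known to be removed after G1 in many cells, had counts in embryonic positive cells only. It was at 8.93 CPM in G2, 5.77 CPM in G6, and at 0 in 7 of 10 cells, for a group value of 0.797 CPM (0.664 to 0.949, exact Poisson interval at 95%). With a floor of 3 counts over a group, this was at least 51.95-fold higher than in embryonic negative cells and at least 24.5-fold higher than in P5 positive cells, and all of it rests on 3 of 33 cells. All intervals of CPM and of ratios cover counting error only and are much smaller than the differences from cell to cell.

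Orc3, a core ORC subunit (GENCODE vM21, GRCm38 chr4:34570796-34614944), was at 21.4, 93.5 and 289.6 CPM (lowest, median and highest) in embryonic positive cells and at 0, 66.2 and 205 CPM in embryonic negative cells. In P5 positive cells it was at 0.591, 19.9 and 77.6 CPM, so that the highest of them, L2P10, lay below the embryonic median and the other 5 at or below 28.7 CPM. The log2 ratio of P5 to embryonic positive cells was -2.36 (-2.42 to -2.30), and it stayed between -3.00 and -2.03 when each cell was left out. Orc2 and Orc4, further core subunits, and Orc6, which is known to bind the core more loosely, showed log2 ratios of -1.37, -1.47 and -2.34 in that comparison. That of Orc4 was -0.75 without G27. Without L2P12, which held 88.3% of the P5 counts of Orc6, those of Orc2 and Orc6 were -2.14 and -5.03. Orc2 was also higher in embryonic positive than negative cells, at a median of 90.7 against 0.133 CPM and a log2 ratio of 1.51, although the highest cell of all was the negative N3 at 591 CPM. Orc5 was low, at 4.47 CPM in embryonic positive and 9.79 CPM in embryonic negative cells (log2 ratio -1.13, and -0.79 without N21). Summed over the complex, ORC had 423 CPM in embryonic positive, 291 CPM in embryonic negative and 122 CPM in P5 positive cells. The P5 to E14.5 log2 ratio of the sum was -1.79, the lowest of the 9 sets, with 5 of 6 genes over 2-fold lower where 40.9% of all genes were. It was -2.42 without L2P12, with 6 of 6 lower against 48.99% of all genes. Without L2P8 it was -1.53 and without G27 -1.67, with 4 of 6 lower each time, against 42.5% and 41.2% of all genes. ORC was the lowest set whichever cell was left out.

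**Figure D4:**
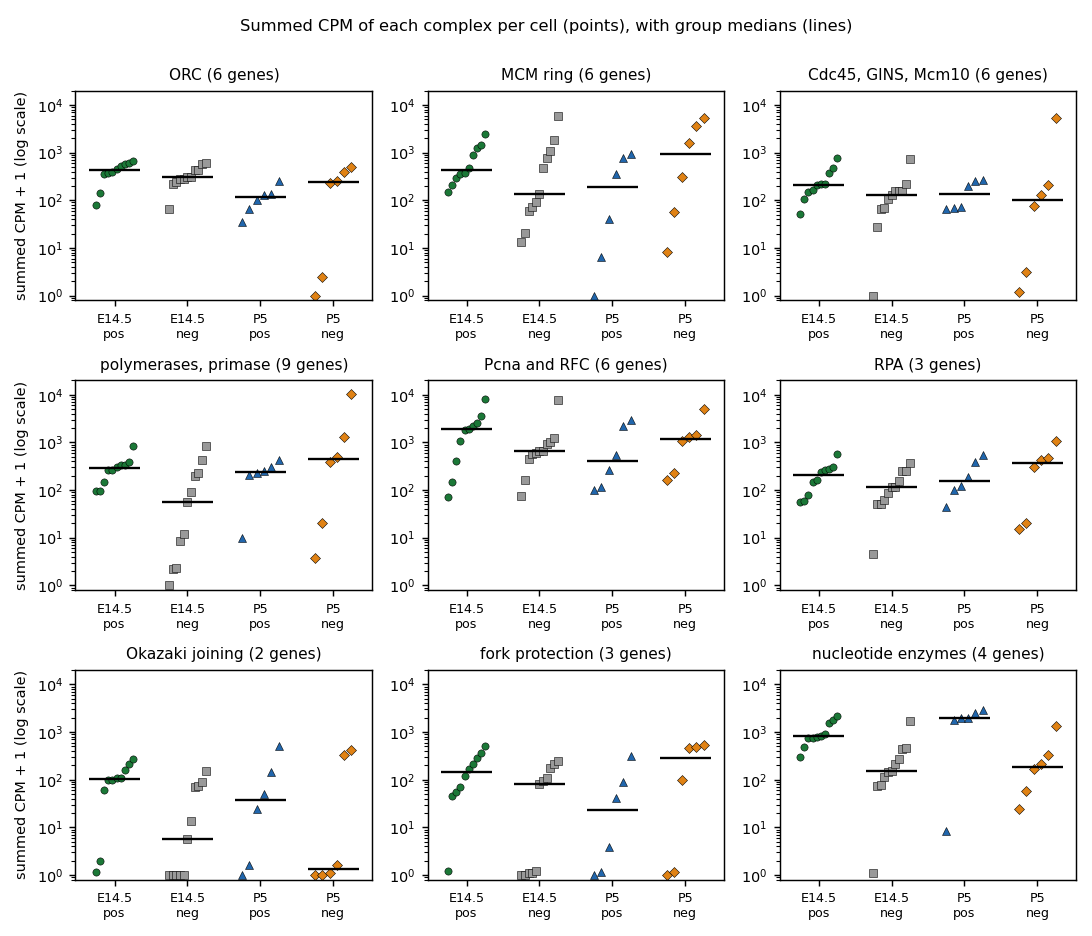
Summed CPM + 1 (log scale) of each of the 9 sets in each of the 33 cells (points), with the median of each group (line). In the ORC panel the P5 positive median is 115 CPM against 426 CPM at E14.5, and in the panel of nucleotide enzymes 5 of 6 P5 positive cells lie at 1821 CPM or above.

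The MCM ring is the motor of the helicase. In the summed counts none of its 6 genes was over 2-fold higher in embryonic positive than negative cells, and the summed log2 ratio was -0.95, the lowest of the 9 sets. The cells gave another order. Summed MCM levels were 146, 422 and 2465 CPM in positive cells and 12.3, 137 and 5984 CPM in negative ones, so that the log2 ratio of the medians was 1.62. N24 alone reached 5984 CPM, and without it the summed log2 ratio was 0.22. Cells with title numbers 1 to 10 gave 2.39, and those with 21 to 30 gave -2.30.

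Mcm4, one of the catalytic core subunits (chr16:15623897-15637400), was the most abundant ring gene per length at 98.2 CPM per kilobase of merged exons in the embryonic positive group, against 33.2 for Mcm6, 23.6 for Mcm3, 9.14 for Mcm7, 2.59 for Mcm2 and 1.75 for Mcm5. It was at 0.0416, 309.7 and 1544 CPM in embryonic positive and at 0, 5.62 and 4120.3 CPM in embryonic negative cells. The positive cells had 8 of 10 and the negative cells 5 of 11 at 10 CPM or more, yet the log2 ratio of the groups was -0.98 (-0.99 to -0.96), and N24 held 70.8% of the negative counts. Without N24 it was 0.62. Mcm6 (chr1:128331590-128359664), whose promoter window above carries 3 E2F motifs, was at 0, 150.0 and 476 CPM in positive cells and 0, 69.9 and 1297 CPM in negative ones. Its log2 ratio was -1.09 (-1.11 to -1.06) and -0.27 without N24, below 0 although the median positive cell had more. Mcm7 (chr5:138164583-138172422) was present more evenly, at 0.119, 22.8 and 107 CPM in positive cells and 0, 21.7 and 204 CPM in negative ones, with a log2 ratio of -0.83 (-0.26 without N24).

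Mcm2 (chr6:88883474-88898780), the ring subunit that also binds histones, was low in the embryonic cells. It was at 0, 10.8 and 16.4 CPM in positive cells and at 0, 0 and 62.3 CPM in negative ones, where 6 of 11 had no count, and the log2 ratio was -0.78 (-0.87 to -0.69). Without N24, which held 49.5% of the negative counts, it was 0.02. Mcm5 (chr8:75109569-75128439), which closes the gate of the ring with Mcm2, was at 0, 6.79 and 28.9 CPM in embryonic positive and 0, 0.436 and 25 CPM in embryonic negative cells (log2 ratio -0.10, and 0.61 without N24). At P5 the positive cells had 0, 7.22 and 101 CPM of Mcm5, and it was the ring gene with the highest P5 to E14.5 ratio, at a log2 of 2.15 (2.04 to 2.26). The medians of the 2 ages were close, and L2P7 alone held 51.2% of the P5 counts, but the ratio stayed at 1.33 or more when any cell was left out. Of the other ring genes, Mcm4 and Mcm7 were over 2-fold lower at P5 (log2 -1.18 and -1.11, or -0.69 and -0.65 without L2P8), and Mcm2, Mcm3 and Mcm6 lay within 2-fold (log2 -0.64, -0.42 and 0.08). Mcm2 was at -3.16 without L2P3, which held 85.5% of its P5 counts. Without L2P12, which held 77.5% of those of Mcm3, the ratios were -2.17 for Mcm3 and -0.71 for Mcm6. Summed MCM levels in P5 positive cells were 0, 193 and 949 CPM, with no count of any ring gene in L1P5, which had the fewest counts of all 33 cells. The summed log2 ratio to E14.5 was -0.58, and -1.39 without L2P12.

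Cdc45 (chr16:18780447-18811987) joins the loaded ring with GINS when an origin fires. It was at 0, 20.3 and 315 CPM in embryonic positive and 0, 0.0291 and 136 CPM in embryonic negative cells. Positive cells had 10 CPM or more in 7 of 10 and negative cells in 2 of 11, and the log2 ratio was 1.87 (1.81 to 1.92). Each group leaned on 1 cell, G28 with 70.6% and N24 with 87.02% of the counts, and the ratio was 0.34 without G28 and 4.63 without N24. At P5 Cdc45 was at 0, 21.7 and 67.7 CPM in positive cells, a median like that of the embryo, and the log2 ratio to E14.5 was -1.53 and 0.00 without G28.

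GINS is a ring-shaped adaptor of 4 subunits. Gins3 (chr8:95633453-95645060), with 1 E2F motif in its window above, had the highest embryonic ratio of the 45 genes but for Orc1. It was at 0, 8.33 and 116 CPM in embryonic positive cells, while in negative cells 9 of 11 had no count and the highest, N8, had 8.26 CPM. The log2 ratio was 5.40 (5.12 to 5.70). Without G25, which held 54.4% of the positive counts, it was 4.43. At P5 Gins3 was found in 1 of 6 positive cells, L2P7, at 20.1 CPM, for a log2 ratio to E14.5 of -3.04 (-3.23 to -2.86), or a bound of -9.22 without that cell. Gins4 (chr8:23226616-23237659) did not differ over 2-fold between embryonic groups (log2 -0.09, and -1.19 without G27). At P5 it had the lowest ratio of those of the 45 genes with at least 20 CPM in the higher group. It was at 4.37, 25 and 162 CPM in embryonic positive and 0, 4.88 and 12.4 CPM in P5 positive cells. The log2 ratio was -3.12 (-3.23 to -3.00), with a range of -3.66 to -2.02 when each cell was left out, and the groups overlapped between 4.37 and 12.4 CPM. Gins1 and Gins2 lay within 2-fold in both comparisons (log2 0.95 and -0.20 in the embryo, -0.87 and 0.61 at P5). Single cells moved these too. Without N24, which held 72.9% of the negative Gins1 counts, the embryonic ratios were 2.65 and 0.53. The P5 ratio of Gins1 was -1.28 without L2P7 and that of Gins2 1.35 without G6. Mcm10, a factor needed to start the helicase, was at 5.05 CPM in embryonic positive, 2.56 CPM in embryonic negative and 2.05 CPM in P5 positive cells.

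Polymerase and primase genes were summed at 92.8, 284 and 827 CPM in embryonic positive and 0, 55.3 and 844 CPM in embryonic negative cells. The log2 ratio of the medians was 2.36 and that of the summed counts 0.48, or 1.33 without N24. Prim1, the catalytic primase subunit, was over 2-fold higher in positive cells (log2 1.36), with medians of 91.2 and 2.003 CPM. Prim2 (chr1:33453810-33669795), its partner, was at 0, 9.997 and 64.96 CPM in positive cells and 0, 0 and 173 CPM in negative ones. Its log2 ratio was -0.95 (-1.02 to -0.87), and 0.97 without N24, which held 76.6% of the negative counts. Both subunits of the same enzyme thus had opposite signs in the summed counts and the same sign without that cell. At P5 nearly all Prim2 counts were in L2P12, and its log2 ratio of 0.79 became -7.93 without it.

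The subunits of polymerase delta, which extends the lagging strand, had ratios of both signs between the ages. Pold1 (chr7:44532746-44548849), the catalytic subunit, was at 0, 0.117 and 17.4 CPM in embryonic positive, 0, 0 and 50.7 CPM in embryonic negative and 0, 0.44 and 150.1 CPM in P5 positive cells. L2P8 held 93.5% of the P5 counts, and the log2 ratio to E14.5 of 3.79 (3.66 to 3.92) was 0.33 without it. Pold2 (chr11:5872180-5878292), an accessory subunit, was at 0, 5.84 and 13.3 CPM in embryonic positive and 0, 18.95 and 97.2 CPM in P5 positive cells, with 4 of 6 P5 cells but 1 of 10 embryonic cells at 10 CPM or more. The log2 ratio was 2.38 (2.28 to 2.48), and 1.28 without L2P12. Pold3 (chr7:100082111-100121565), the subunit that carries a Pcna-binding motif, had the opposite sign. It was at 0, 55.98 and 122 CPM in embryonic positive and 0, 0.0187 and 35.7 CPM in P5 positive cells, for a log2 ratio of -2.43 (-2.52 to -2.34), and it was also higher in embryonic positive than negative cells (medians 55.98 and 1.17 CPM, log2 1.00). That last ratio sat at the 2-fold limit, at 0.57 without G27 and 2.85 without N24.

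Pole2 (chr12:69201773-69228195), a subunit of the leading strand polymerase epsilon, was at 0, 27.2 and 75.1 CPM in embryonic positive and 0, 0.167 and 109 CPM in embryonic negative cells, with a log2 ratio of -0.07. In P5 positive cells it was at 0, 0 and 28.2 CPM, and 4 of 6 had no count. The log2 ratio to E14.5 was -2.67 (-2.82 to -2.52), and -5.97 without L2P7. Pole, the catalytic subunit, had a log2 ratio of -5.01 at P5, at a level of 0.445 CPM, and in the embryo N24 held nearly all of the negative counts. Pola1 and Pola2, of the polymerase that extends primers, were over 2-fold lower at P5 (log2 -1.52 and -2.03) and within 2-fold in the embryo (log2 0.64 and -0.76), where Pola1 was at 1.84 without N25 and Pola2 at -1.44 without G25.

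Pcna (chr2:132249162-132253314), the sliding clamp that tethers polymerases to DNA, was the most abundant of the 45 genes per length in the 3 groups of the first comparisons, at 1048 CPM per kilobase in embryonic positive, 876 in embryonic negative and 699 in P5 positive cells. It was at 24.9, 1632 and 7655 CPM in embryonic positive, 2.33, 539.7 and 7218 CPM in embryonic negative and 100.2, 389 and 2829 CPM in P5 positive cells. No cell was without a count of it, and 32 of 33 had 10 CPM or more. The log2 ratio of embryonic positive to negative cells was 0.26 (0.25 to 0.27), and 1.58 without N24, which held 64.8% of the negative counts. That of P5 to embryonic positive cells was -0.59 (-0.60 to -0.57), and -1.10 without L2P12.

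RFC loads the clamp. Rfc1 (chr5:65261850-65335670), the large subunit, was at 0.344, 28.6 and 274 CPM in embryonic positive and 0, 37.4 and 478 CPM in embryonic negative cells, with a log2 ratio of -0.77 (-0.81 to -0.73) that was 0.06 without N24 and -1.21 without G6. The small subunits Rfc4 and Rfc5 were over 2-fold higher in positive cells (log2 1.81 and 1.17, the latter 0.87 without G25), and Rfc4 was at 10 CPM or more in 10 of 10 positive and 4 of 11 negative cells. Rfc2 and Rfc3 lay within 2-fold (log2 -0.66 and 0.03), with Rfc2 at -1.14 without G28. At P5 Rfc1 and Rfc3 were over 2-fold lower (log2 -1.77 and -1.87) and the other 3 within 2-fold (log2 0.12, -0.80 and 0.61), with Rfc4 at -1.62 without L2P12. For the clamp and its loader together, the log2 ratio of the embryonic medians was 1.51 and that of the summed counts 0.24, or 1.48 without N24.

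RPA coats the single strands behind the helicase. Rpa2, the middle subunit, was at 10 CPM or more in 10 of 10 embryonic positive and 6 of 11 embryonic negative cells, with a log2 ratio of 1.21. It was under 2-fold without G27, N23 or N28, at 0.95 or more. Rpa1, the large subunit, and Rpa3, the small one, had log2 ratios of -0.36 and 0.91, within 2-fold, and Rpa3 was at 1.32 without N25. At P5 the log2 ratios to E14.5 were 0.57 for Rpa1, 0.61 for Rpa2 and -1.02 for Rpa3, and only Rpa3 passed 2-fold. Without L2P8 Rpa3 was at -0.53 and Rpa2 at 1.11, while Rpa2 was at -0.81 without L2P12 and Rpa1 at 1.15 without G27. The sum over RPA was 53.98, 204 and 559.7 CPM in embryonic positive, 3.46, 116 and 373 CPM in embryonic negative and 43.1, 156 and 551 CPM in P5 positive cells.

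Fen1 (chr19:10199132-10204169) trims the flaps of Okazaki fragments and Lig1 seals them. Fen1 was at 0, 38.4 and 120.2 CPM in embryonic positive cells, with 10 CPM or more in 7 of 10, and at 0, 0 and 32.9 CPM in embryonic negative cells, with no count in 6 of 11. Its log2 ratio was 1.86 (1.78 to 1.93) and at least 1.47 when any cell was left out. Lig1 had medians of 64.7 and 4.63 CPM and a log2 ratio of 1.11, which was under 2-fold without G27, G28, N23 or N30, at 0.87 or more. Both genes of this set were thus over 2-fold higher in embryonic positive cells, where 22.4% of all genes were. Only Fen1 kept the call whichever cell was left out. Both genes also went together across cells (r = 0.83 over 21 cells). Within the positive group, though, G5 and G25 had 0.934 and 0.179 CPM of the pair, below the negative median of 4.69 CPM. At P5 both lay within 2-fold of E14.5 (log2 -0.34 for Fen1 and 0.74 for Lig1), where L2P12 held 84.03% of the Lig1 counts and the ratio without it was -1.503.

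Fork protection was represented by Clspn, an adaptor for the replication checkpoint kinase, and by Timeless and Tipin, which form a complex at the fork. Clspn had a log2 ratio of 1.51 in embryonic positive over negative cells, with 8 of 11 negative cells at 0 and nearly all negative counts in N24. Without G6 it was 0.72, and no gene of the set was then over 2-fold higher. Tipin lay within 2-fold (log2 0.87, and 1.28 without N30) and Timeless was lower in positive cells (log2 -1.09, and -0.68 without G27), at 5.05 against 10.7 CPM, although its median was 2.30 CPM in positive cells and 0.0804 CPM in negative ones. At P5 the ratio of Timeless to E14.5 (log2 1.51) rested on L2P12, which held nearly all of its counts, and was -7.46 without it. Tipin was over 2-fold lower at P5 (log2 -1.16, and -0.65 without G28), and Clspn lay within 2-fold (log2 0.21, and 1.01 without G6).

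The nucleotide enzymes had the highest summed embryonic ratio of the 9 sets. Their sum was 295, 824 and 2204 CPM in embryonic positive and 0.119, 149 and 1695 CPM in embryonic negative cells. The summed log2 ratio was 1.72, with 2 of 4 genes over 2-fold higher, where 22.4% of all genes were. Without N24, for which the share of all genes is given above, the ratio was 2.65 with 4 of 4 genes higher. Without G27 it was 1.32 with 2 of 4 higher, level with Okazaki fragment joining at 1.32, and with any other cell left out it was the highest of the 9. Every positive cell except G5 had more than 453 CPM, the level of N8, and N24 was the only negative cell above that. The ratio kept its sign within both ranges of title numbers, at 1.96 and 1.74.

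Rrm2 (chr12:24708241-24714146) is the small subunit of ribonucleotide reductase and is known to be made in S phase. It was at 138, 432 and 971 CPM in embryonic positive and 0, 21.3 and 699 CPM in embryonic negative cells. N24 was the only negative cell within the range of the positive cells, since the next highest had 123 CPM. The log2 ratio was 2.47 (2.45 to 2.49), and 4.56 without N24. Rrm1, the large subunit, was at 153, 315 and 741 CPM in positive cells and 0, 109 and 599 CPM in negative ones, and its log2 ratio was 0.99, just under 2-fold, and 1.44 without N24. In P5 positive cells Rrm2 was at 5.09, 507 and 1447 CPM, and 5 of 6 cells were at 10 CPM or more, while L2P10 had 5.09 CPM. The log2 ratio to E14.5 was -0.21 (-0.22 to -0.19) for Rrm2 and -0.23 for Rrm1. That of Rrm2 was -0.60 without L2P7 and 0.47 with equal weights for cells, so its sign depended on the setting.

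Tk1 (chr11:117815526-117826092), the thymidine kinase of the salvage pathway, was at 3.84, 35.3 and 549 CPM in embryonic positive and 0, 1.92 and 51.5 CPM in embryonic negative cells. The log2 ratio was 3.37 (3.32 to 3.43). G27 held 75.3% of the positive counts, and without it the ratio was 1.76. In P5 positive cells Tk1 was at 1.35, 787 and 1254 CPM, and 5 of 6 cells lay above the embryonic median. The log2 ratio of P5 to embryonic positive cells was 2.25 (2.23 to 2.27), and between 1.93 and 3.86 when each cell was left out. Tyms (chr5:30058202-30073617), which makes thymidylate from deoxyuridylate, was at 0, 72.9 and 187 CPM in embryonic positive, 0, 4.18 and 366 CPM in embryonic negative and 0, 33.8 and 332 CPM in P5 positive cells. Its log2 ratios were 0.72 (0.68 to 0.75) in the embryo, or 2.72 without N24, and 0.64 (0.60 to 0.67) at P5, or -0.16 without L2P12.

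The nucleotide enzymes were also set against the helicase within each cell. Levels of different genes were compared per kilobase of merged exons, as the mean over the genes of a set. Nucleotide enzymes were at 25.97, 77.1 and 251 CPM per kilobase (lowest, median and highest) in embryonic positive cells, and the MCM ring at 8.15, 19.6 and 115. In P5 positive cells the enzymes were at 0.87, 251 and 353 and the ring at 0, 9.08 and 42.7. The enzymes were above the ring in 10 of 10 embryonic positive, 5 of 11 embryonic negative, all 6 P5 positive and 4 of the 6 P5 negative cells. In the P5 positive cell L2P10 both were low, at 0.87 for the enzymes and 0.30 for the ring. The P5 positive cells L1P5 and L2P8 had 244 and 285 CPM per kilobase of the enzymes with 0 and 1.90 of the ring. L1P5 had the fewest counts of all cells, 2545036, and a count for 12 of the 45 genes. Reads of amplified RNA need not scale with exon length, so these values compare sets only roughly.

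Correlations across cells among the replication genes had a higher median than those among genes at large. Over the 21 E14.5 cells, 41 of the 45 genes had 10 CPM or more in at least 5 cells, and the median Pearson r of their 820 pairs on log2(CPM + 1) was 0.44, against 0.05 for 6977 genes chosen in the same way. The highest pair was Mcm2 with Lig1 (r = 0.88). Within sets the median was 0.56 for the MCM ring, 0.56 for polymerases and primase, 0.56 for nucleotide enzymes and 0.45 for fork protection. It was 0.28 for Pcna and RFC, 0.27 for Cdc45 and GINS and 0.17 for RPA. With members of other sets the medians were 0.48, 0.50, 0.48, 0.46, 0.41, 0.39 and 0.45, in the same order. The median within the set was thus the lower one for Pcna and RFC, Cdc45 and GINS, and RPA, and nearly the same for fork protection. ORC stood at the other end, with a median of -0.00 over its 5 detected genes and 0.20 with members of other sets. The cells differ in depth and number of detected genes, which all pairs share, and both groups are pooled in these values.

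Among embryonic positive cells, replication genes were not at their highest where mitotic RNA was. Over the 21 E14.5 cells the median r between a replication gene and a G2/M gene was 0.29, while G2/M genes among themselves had 0.86. Rrm2 (r = 0.85 with the G2/M sum) and Tk1 (0.70) were the nearest to the G2/M genes, and Rfc1 (-0.26) and Orc5 (-0.22) the farthest. Within the 10 positive cells the sum of the 45 genes and the G2/M sum went in opposite directions (r = -0.61), as did the MCM ring (-0.63) and Pcna with RFC (-0.67), and less so the nucleotide enzymes (-0.15). Within the 11 negative cells r for the sum of the 45 genes was 0.33, with N24 highest in both sums, and over all 21 cells it was 0.36. Among positive cells, G2 and G6 had 874 and 2467 CPM of G2/M genes with 6691 and 15885 CPM of the 45 genes. At the other end, G5, G25 and G29 had 10575, 10915 and 10742 CPM of G2/M genes with 915, 1569.6 and 2123 CPM of the replication genes. The G2/M sum also went with the range of title numbers. All positive cells numbered 21 to 30 had 8772 CPM or more, and those numbered 1 to 10 had 7063 CPM or less, except G5. Total counts differed too, at 16764314 or more against 12807230 or less. The part of the range or of depth in these correlations was not tested. Both sums of a cell are shares of its total. Among positive cells they were at most 10915 CPM (G2/M genes) and 15885 CPM (the 45 genes). Whether the shared total has a part in the opposite directions was not tested.

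**Figure D5:**
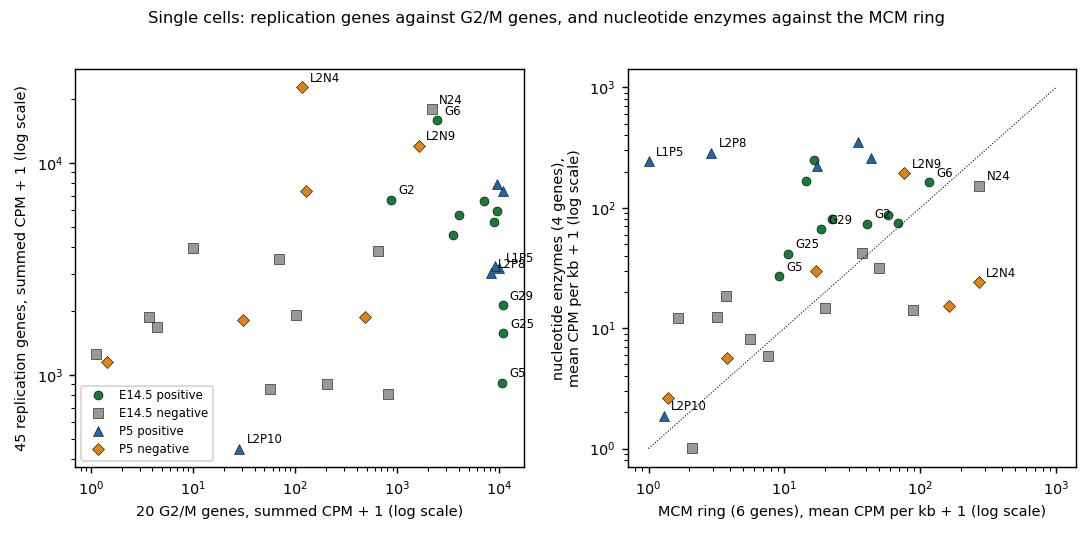
Left: summed CPM + 1 of the 45 replication genes against 20 G2/M genes in the 33 cells; right: mean CPM per kilobase + 1 of the 4 nucleotide enzymes against the 6 MCM ring genes, with a dotted line of equal values (all axes log scale, each point 1 cell). At left the embryonic positive cells run from G6 and G2, with few G2/M counts, down to G5, G25 and G29, and at right all 16 positive cells lie above the line.

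The third comparison, P5 positive over P5 negative, compares cells whose markers differ, since all 6 P5 negative cells had more endothelial, or fibroblast and mural, than cardiomyocyte marker RNA. Of 44 genes with at least 10 counts, 9 (20.5%) were over 2-fold higher in positive cells, against 34.2% of 11567 genes, and 20 (45.5%) were over 2-fold lower, against 39.4%. Orc1 had no count in either group. Of these calls, 7 of the 9 and 10 of the 20 held whichever cell was left out. The median log2 ratio was -0.80, and -0.29 for all genes. All 4 nucleotide enzymes were higher, with log2 ratios of 2.35 for Rrm1, 3.86 for Rrm2, 1.84 for Tyms and 2.33 for Tk1. The MCM ring had the opposite sign, with summed levels of 7.08, 951 and 5456 CPM in P5 negative cells and a summed log2 ratio of -1.68. Single negative cells carried much of this, among them L2N4, with 3482 CPM of Mcm2, 9813 CPM of Pola1 and 2744 CPM of Cdc45. Without L2N4 the summed log2 ratio was -1.34 for the MCM ring, 1.02 instead of -1.20 for Cdc45, GINS and Mcm10, -0.77 instead of -2.07 for polymerases and primase, and 2.57 for the nucleotide enzymes. The MCM ring ratio ran from -2.49 without L2P12 to -0.99, under 2-fold, without L2N10. Reporter state and cell type cannot be told apart in this comparison. It shares the P5 positive cells with the second, and the second shares the embryonic positive cells with the first.

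A further 54 genes of replication and nucleotide metabolism were read beside the 45. In embryonic positive over negative cells 12 (22.2%) were over 2-fold higher and 6 (11.1%) lower, against 22.4% and 28.96% of all genes, with a median log2 ratio of 0.15. The 3 highest with at least 20 CPM in the higher group were Top2a, which untangles replicated DNA, at 745 against 32.1 CPM (log2 4.53), the histone chaperone gene Asf1b (log2 3.46), and Dbf4, the activator of the origin-firing kinase Cdc7, at 384 against 40.2 CPM (log2 3.26). The 3 lowest were Samhd1, which degrades deoxynucleotides (log2 -2.10), Wdhd1, which links the helicase to polymerase alpha (log2 -1.67), and Cdt1, the loading factor that geminin binds (log2 -1.01). Within title numbers 1 to 10 these 3 were at 0.13, 1.36 and 1.73, and Wdhd1 was at -4.12 without G27. The 3 highest kept their sign under every alternative. In P5 over embryonic positive cells 10 (18.5%) were higher and 22 (40.7%) lower, against 30.3% and 40.9% of all genes, with a median of -0.68. The lowest was Dctd, a deoxycytidylate deaminase, with 2 counts in all P5 positive cells and 46.6 CPM at E14.5 (log2 -11.07 (-14.11 to -9.22)). Mcm8, of a helicase used in repair (log2 -5.91), and Dnmt1, the maintenance DNA methyltransferase (log2 -4.33), followed. The highest were Pold4 (log2 6.35), Chaf1a of the chromatin assembly factor (log2 2.60) and Rnaseh2a, a subunit of ribonuclease H2 (log2 1.99). L2P12 held 95.6% of the P5 counts of Pold4 and 99.2% of those of Chaf1a, and without it the ratios were 2.24 and -3.94. Rnaseh2a was at 0.77, under 2-fold, without L2P12.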

How the data were processed

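Single ventricular cells were sorted by mAG-hGem, their RNA was amplified as antisense RNA, as the series' design text states, and TruSeq libraries were prepared, per the labels' protocols. The deposited values are raw read counts per gene, and the submitters' processing notes list CASAVA 1.8.2, STAR 2.4.0j, HTSeq 0.6.1p1 and build mm10. Settings, annotation, strand and the handling of reads shared by overlapping genes are not given in the sources used here. No column belonged to another series.

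The 45 members and all lists were chosen with earlier results of these data known. Groups came from the labels. Counts were summed per group and divided by summed totals. CPM has an exact Poisson interval and ratios an exact Clopper-Pearson interval at 95%, for genes reaching 10 counts in the compared groups together, and a floor of 3 counts over a group stood for 0. Reads are amplified copies, not molecules. Of the nonzero values of the 45 genes, 10.4% were 1 to 3 counts. Per-cell values are given for Mcm2, Mcm5, Cdc45, Pcna, Orc1, Rrm2, Tyms and Tk1, and for the 5 highest and 5 lowest ratios in each of the first 2 comparisons with at least 20 CPM in the higher group (3 and 3 for the other replication genes). Other members are given by counts and ratios.

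Alternatives were equal weights for cells, thinning to a common depth, edgeR 4.0.16 TMM factors, DESeq2 1.42.0 size factors, totals without the 20 most abundant genes, other filters, title number ranges and leaving out cells. The script was tested on simulated data. Coordinates and exon lengths are from GENCODE vM21, promoters from RefSeq on GRCm38.p6, read with Python 3.11.15, numpy 2.4.6, scipy 1.17.1, pandas 2.3.3, matplotlib 3.10.9 and R 4.3.3.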

Additional observations from a re-analysis of the deposited data

Results flagged for a closer look

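Within the groups of 6 to 10 cells, 33 combinations of a group and a summed level were checked for a lone highest or lowest cell. By Dixon's limit, 10 had a cell that stood apart from the rest. The limit is passed by about 1 in 20, or 1.65 of them, only where values are normally distributed. Summed CPM are skewed towards high cells, so 1.65 is not the number to expect here. The levels share genes and cells, so these are not separate events, and the group of 11 E14.5 negative cells was not checked.

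Cell G6 (E14.5 positive) was highest in 4 of them. It had 8100 CPM of Pcna and RFC (next cell 3597), 827 CPM of polymerases and primase (379), 559.7 CPM of RPA (308) and 15885 CPM of all 45 genes (6691). Cell L2P12 (P5 positive), the cell with endothelial markers, had 501 CPM of Fen1 with Lig1 (142) and 307 CPM of the fork protection genes (87.9). Among the P5 negative cells L2N4 had 5396 CPM of Cdc45, GINS and Mcm10 (213) and 10367 CPM of polymerases and primase (1317), and L2N9 had 5094 CPM of Pcna and RFC (1410) and 1365 CPM of nucleotide enzymes (337). L2N4 had the fewest detected genes of all cells, 2994, and its part in these values was not tested.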

How the results depend on the processing

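No paired analysis was possible because each group is 1 sample and no result comes from a test. Single-gene ratios here have 0.5 count added on each side, so they can differ slightly from those above without it. In E14.5 positive over negative cells, where 3 genes were lower, 5 were lower with DESeq2 size factors, 1 with equal weights for cells and 1 with at least 20 CPM in the higher group. The median of all genes moved as well, from -0.16 to -0.28 with DESeq2 size factors and to -0.14 with equal weights. The shares of all genes called under these settings are not given here. Title numbers 1 to 10 gave a median of 1.71 with 28 genes higher and 1 lower, and turned Mcm6 to 1.71, Cdt1 to 1.73, Samhd1 to 0.13 and Wdhd1 to 1.36 (log2), while numbers 21 to 30 gave -0.12 with 13 lower. In P5 over E14.5 positive cells 8 genes were higher with DESeq2 size factors, and without the cell with endothelial markers the median was -1.503 and Chaf1a was at -3.90. Thinning turned the P5 positive over negative ratio of Cdc45, GINS and Mcm10 to 0.74 and of Cdc45 to 5.14. It leaves out L2N4.

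Leaving out each cell in turn gave E14.5 medians of 0.10 (without N23) to 0.90 (without N24), with 10 to 20 genes higher and 1 to 8 lower. For P5 over E14.5 positive cells the medians were -1.503 (without L2P12) to -0.33 (without L2P8), with 4 to 8 higher and 14 to 27 lower, Cdc45 at -2.08 to 0.0029 and Chaf1a at -3.90 to 3.10. For P5 positive over negative cells the medians were -1.58 to -0.44, with 7 to 14 higher and 17 to 28 lower. There the summed Cdc45, GINS and Mcm10 ratio ran from -1.65 to 1.02, Cdc45 from -3.46 to 6.11, Gins3 from -12.30 to 1.78, Mcm6 from -2.06 to 0.59, Chaf1a from -5.19 to 5.16, Pold4 from -3.06 to 1.87, Mcm8 from -3.85 to 2.02 and Dctd from -8.89 to 0.38. The cause of these differences was not tested. The median of all genes moved too. Over all alternatives it lay between -0.31 and 0.02 for E14.5 positive over negative cells. It lay between -0.93 and -0.0023 for P5 over E14.5 positive cells, and between -0.75 and 0.12 for P5 positive over negative cells. The share of all genes called is given above for some of the cells left out only. Signs held under every alternative for 6 of 9 set sums in each comparison, and for 16, 25 and 18 of 33 named genes. P5 positive over negative could not be run without cells dominated by other markers, which removes all P5 negative cells.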
